A study of Mus musculus with 18 samples.

Results

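Wild-type (WT) mouse hearts in which thyroid hormone was restored after its synthesis had been blocked were compared with hearts in which it stayed blocked. The samples were taken from the labels and the table's column names: 3 libraries of WT mice fed propylthiouracil (PTU) and then injected with triiodothyronine (T3), and 3 libraries of WT mice fed PTU alone, which makes 6 of the 18 libraries of the series. They are called T3 hearts and PTU hearts here. All mice were C57BL/6 and 12 weeks old, and the labels name no engineered allele for either group. The T3 hearts came after 4 weeks of PTU diet, begun at 8 weeks of age, and 3 daily T3 injections; the PTU hearts had the same 4 weeks of diet without T3. The other 12 libraries are WT hearts on normal chow (3), used here as a point of orientation, and hearts labelled as a cardiac-specific knockout of Med13 (cKO) on T3 after PTU (3), PTU (3) and chow (3). Med13 encodes a subunit of the Mediator complex, which links transcription factors to RNA polymerase II. The promoter that drove Cre, the T3 dose and a vehicle injection in the PTU group are not stated in the labels, so the act of injection cannot be told apart from T3. Whether the 3 libraries of a group stem from 3 different mice is not stated in the labels, and p-values cover no more than the spread between these libraries, which may be technical.

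PTU inhibits thyroid peroxidase and so stops the thyroid gland from making hormone. T3, the active hormone, binds the nuclear receptors encoded by Thra and Thrb, which sit on DNA as partners of retinoid X receptors. Without hormone these receptors hold corepressors at many target genes, and with it they exchange them for coactivators. In the rodent heart the hormone is known for the switch between the 2 myosin heavy chains, for faster calcium uptake and a higher heart rate, and for a larger demand for fuel and oxygen.

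Levels are given as FPKM, the number of sequenced fragments divided by the length of the transcript and by the size of the library. The 6 libraries summed to between 604633 and 743680 FPKM in T3 hearts and between 582241 and 691588 FPKM in PTU hearts, and 11764 to 12093 and 11679 to 11914 genes reached 1 FPKM. Across genes, libraries of one group correlated at 0.980 to 0.989 in T3 hearts and 0.984 to 0.987 in PTU hearts, and libraries of different groups at 0.936 to 0.953. Med13 itself had 6.29, 5.30 and 5.61 FPKM in T3 hearts and 6.55, 5.57 and 6.96 FPKM in PTU hearts. In the 9 libraries labelled cKO it lay between 4.93 and 6.82 FPKM, and in the 9 WT libraries between 5.24 and 6.96 FPKM, so its gene level did not tell the cKO label from WT. The cardiomyocyte markers summed to between 54765 and 86828 FPKM in T3 hearts and between 59280 and 77606 FPKM in PTU hearts, while 5 of the 8 markers of thyroid and thymus stood at the lowest value of the table. Several libraries stood apart. The sum of 11 atrial markers, Nppa among them, was 3378, 3079 and 3505 FPKM in T3 hearts and 7035, 2844 and 1688 FPKM in PTU hearts. T3 replicate 2 was high in adipocyte markers (45.0, 161 and 43.8 FPKM in T3 hearts and 45.3, 42.7 and 38.4 FPKM in PTU hearts) and in lymphocyte markers (4.79, 17.5 and 2.77 FPKM, against 3.50, 3.75 and 4.32 FPKM). PTU replicate 1 was high in granulocyte and mast cell markers (16.6, 15.8 and 4.33 FPKM in T3 hearts and 98.9, 10.3 and 8.62 FPKM in PTU hearts). Of the tested members of these 4 lists only Cidea, an adipocyte marker that heart muscle may also express, was called. In whole hearts, more cells of a type and more RNA per cell cannot be told apart.

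A gene was tested if 3 or more of the 18 libraries held it at 1 FPKM or above. Of the 12587 such genes, 5545 (44.1%) differed between T3 and PTU hearts at an adjusted p under 0.05 in a limma test on log2(FPKM + 1), and such genes are said below to have risen, fallen or been called. In T3 hearts 2802 genes (22.3%) rose and 2743 (21.8%) fell, so every count of a gene group has to be read against these shares. The log2 change was at least 1 in size for 534 of the genes that rose (4.24% of all tested) and for 361 of those that fell (2.87%), at least 2 for 71 (0.564%) and 46 (0.365%), and at least 3 for 18 (0.143%) and 10 (0.0794%). The share called was lowest, 30.1%, among genes that averaged under 1 FPKM and highest, 54.1%, between 30 and 100 FPKM. Among the 97 genes averaging 1000 FPKM or more, 21 rose and 17 fell, and a different gene led the list of transcripts: Actc1 was the most abundant in each T3 heart and Myl2 in each PTU heart. For 6380 genes (50.7%) the 3 values of one group lay wholly above the 3 of the other. Log2 fold changes are differences between group means of log2(FPKM + 1), T3 minus PTU, a scale on which genes at low levels show less than their true fold change. Fits with fewer libraries called fewer of all genes. Without the library highest in atrial markers of each group (T3 replicate 3 and PTU replicate 1) 2051 of 12587 genes rose and 2030 fell. List counts from such fits have to be read against these totals. The T3 hearts hardly differed in their atrial sums (3378, 3079 and 3505 FPKM).

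**Figure D1:**
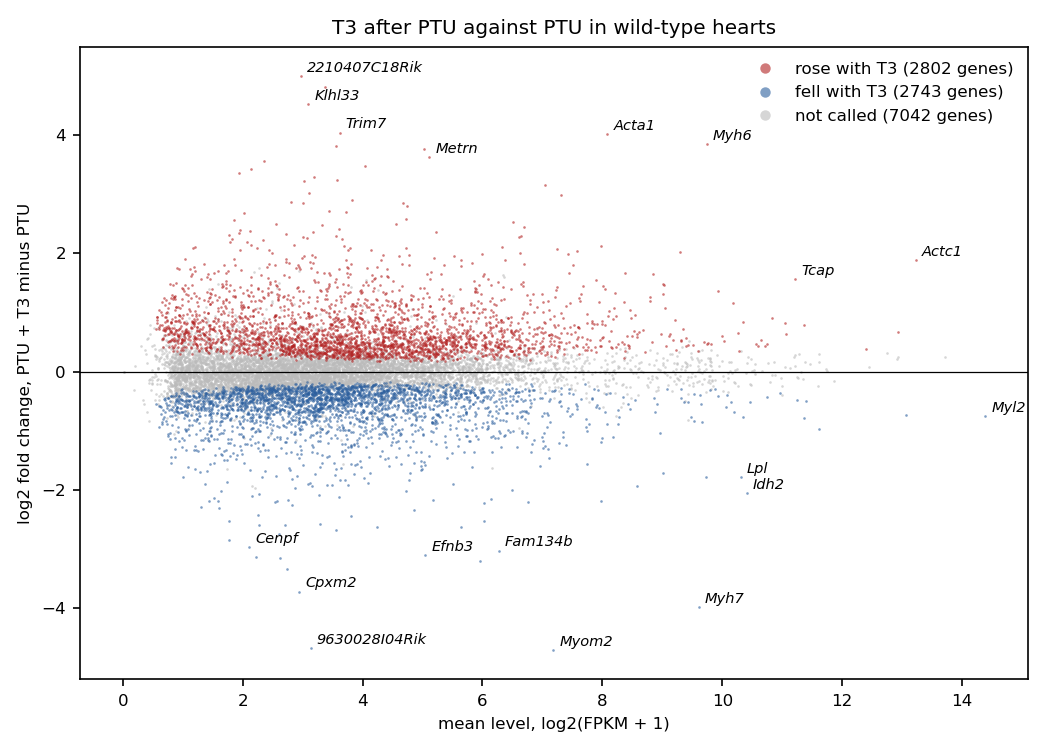
Each point is 1 of the 12587 tested genes. The horizontal axis is its mean level over the 6 WT libraries, as log2(FPKM + 1), the vertical axis is the log2 fold change of T3 over PTU hearts, and colours mark the 2802 genes that rose and the 2743 that fell. Called genes lie on both sides across the range of levels, and changes of 3 or more log2 units are shown by 18 genes that rose and 10 that fell.

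Genes of hormone reception and transport moved in both directions. Rxra, the retinoid X receptor of heart muscle, had 15.8, 12.5 and 15.3 FPKM in T3 hearts and 22, 18.8 and 20.3 FPKM in PTU hearts (log2 fold change -0.47, SE 0.0932, adjusted p = 0.000815). The groups did not overlap, and every T3 heart was lower. Of 14 corepressor and coactivator genes 3 rose and 3 fell, close to the background; Ncoa2, a coactivator, fell by 0.48 on the log2 scale. Slc16a10 (MCT10), a membrane transporter of thyroid hormone, stood at 7.0, 7.24 and 8.18 FPKM in T3 hearts, above the 5.07, 4.5 and 6.22 FPKM of PTU hearts (log2 fold change 0.44, adjusted p = 0.0211), a call lost under 4 alternatives with an adjusted p of up to 0.149: without PTU replicate 1, PTU replicate 2, T3 replicate 3 or the library highest in atrial markers of each group (T3 replicate 3 and PTU replicate 1).

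Among textbook targets of the hormone, 20 genes known as induced in heart or liver were tested: 15 rose and 1 fell, and the median log2 fold change was 1.14, against -0.00124 over all tested genes. Of 8 genes known as repressed, 7 fell and none rose, with a median of -1.2. Hr, a corepressor that is a direct target of the receptor, had 59.3, 48.7 and 51.4 FPKM in T3 hearts, 1.15, 1.43 and 0.368 FPKM in PTU hearts and 7.06 ± 0.947 FPKM on chow (SD, n = 3). Its level with T3 was thus above both the PTU and the chow hearts. Klf9, a zinc finger transcription factor, had 45.2, 34.8 and 44.0 FPKM in T3 hearts and 15.7, 15 and 21.5 FPKM in PTU hearts (log2 fold change 1.21, SE 0.167, adjusted p = 3.34e-05). Me1, the malic enzyme that makes NADPH, had 84.3, 59.9 and 70.8 FPKM in T3 hearts and 35.0, 29.7 and 35.2 FPKM in PTU hearts (log2 fold change 1.07, adjusted p = 1.28e-05). Gpd2, which passes electrons from cytosolic glycerol phosphate to the respiratory chain, had 5.31, 6.46 and 5.76 FPKM in T3 hearts and 1.71, 1.56 and 1.57 FPKM in PTU hearts (log2 fold change 1.39, adjusted p = 1.82e-07). All 3 genes were higher in every T3 heart than in any PTU heart. In the list of repressed genes, Adcy6, an adenylyl cyclase, fell by 0.97 and Slc8a1, the sodium-calcium exchanger, by 0.86 on the log2 scale, whereas the related cyclase Adcy5 was not called (log2 fold change -0.16, adjusted p = 0.304).

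Promoters were read for the hormone panel and for the genes with the largest changes. Among those found, Ucp3 and Hcn2 held 2 copies each of the receptor element AGGTCA, the promoters of Gnmt and Lrrc2 and 1 of 2 promoters each of Klhl33 and Thrb held 1, the others held none, and the sequences of Ucp3 and Hcn2 are shown for that reason. Ucp3, a mitochondrial uncoupling protein (chromosome 7, 100472991 to 100486432), had 51.5, 24.8 and 56.4 FPKM in T3 hearts and 2.47, 1.67 and 1.96 FPKM in PTU hearts (log2 fold change 3.82, SE 0.308, adjusted p = 2.92e-07). Hcn2, a pacemaker channel (chromosome 10, 79716634 to 79736108), had 34.2, 19.1 and 30.6 FPKM in T3 hearts and 1.72, 1.96 and 1.94 FPKM in PTU hearts (log2 fold change 3.29, SE 0.2, adjusted p = 9.86e-09). The windows are the RefSeq promoters of build GRCm38.p6, from 250 bases before to 50 bases after the transcript start, chr7:100472741-100473040 on the plus strand for Ucp3 and chr10:79716384-79716683 on the plus strand for Hcn2, written 5′ to 3′. Capitals mark AGGTCA in Ucp3 and its reverse complement TGACCT in Hcn2.
Ucp3: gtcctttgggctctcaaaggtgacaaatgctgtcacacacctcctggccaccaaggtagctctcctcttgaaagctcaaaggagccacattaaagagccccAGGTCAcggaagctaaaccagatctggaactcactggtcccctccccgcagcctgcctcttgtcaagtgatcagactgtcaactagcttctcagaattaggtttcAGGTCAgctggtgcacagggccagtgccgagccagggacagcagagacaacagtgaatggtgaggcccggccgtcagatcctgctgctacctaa
Hcn2: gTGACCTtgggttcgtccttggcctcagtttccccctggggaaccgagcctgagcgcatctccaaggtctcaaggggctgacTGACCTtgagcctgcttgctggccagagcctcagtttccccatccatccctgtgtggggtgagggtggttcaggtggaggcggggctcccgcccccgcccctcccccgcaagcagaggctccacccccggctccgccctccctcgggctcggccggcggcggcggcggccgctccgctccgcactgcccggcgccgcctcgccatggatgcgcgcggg
These letters are frequent by themselves. AGGTCA was found on either strand in 1524 of 12212 promoters of tested genes (12.5%), in 379 of 2731 promoters of genes that rose (13.9%) and in 310 of 2749 of genes that fell (11.3%). Among changes of at least 1 log2 unit the shares were 69 of 492 for genes that rose (14.0%) and 55 of 351 for genes that fell (15.7%). The form known as a thyroid hormone response element, 2 copies of AGGTCA in the same direction with 4 bases between them, was found in 0 of these windows. A match describes the letters of the window only.

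**Figure D2:**
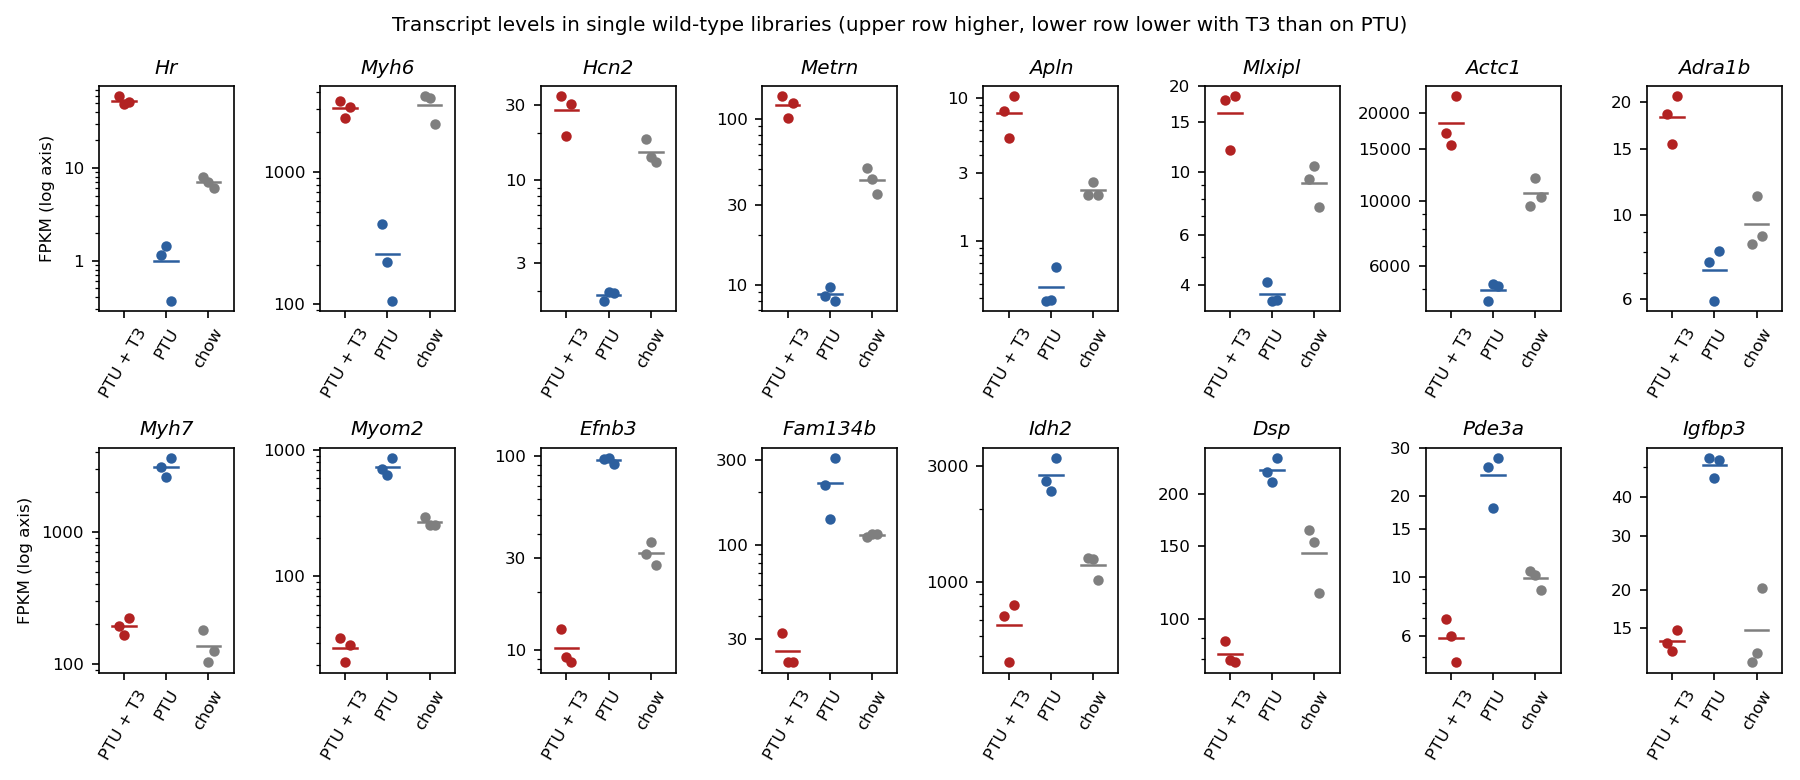
Levels of 16 genes in single libraries, in FPKM on a log axis, for T3 hearts, PTU hearts and chow hearts of WT mice; each point is a library and each line a group mean (n = 3). The upper 8 genes rose and the lower 8 fell with T3, and the T3 and PTU points do not overlap in any of the 16 panels.

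The largest rises were spread over genes with varied functions. The largest log2 rise was that of 2210407C18Rik (chromosome 11, 58608204 to 58613492), a protein-coding gene without an established function, with 19.9, 42.5 and 77.6 FPKM in T3 hearts, 0.351, 0.381 and 0.156 FPKM in PTU hearts and 0.577 ± 0.170 FPKM on chow (log2 fold change 5.01, SE 0.536, adjusted p = 6.41e-06). Metrn, the secreted factor meteorin, had 136, 101 and 123 FPKM in T3 hearts, 8.60, 9.72 and 8.00 FPKM in PTU hearts and 42.9 ± 7.39 FPKM on chow (log2 fold change 3.63, SE 0.164, adjusted p = 4.57e-10). In both genes the T3 hearts lay above every PTU and chow heart. Casq1, the calsequestrin of skeletal muscle, had 112, 140.2 and 84.2 FPKM in T3 hearts and 8.79, 13.1 and 2.89 FPKM in PTU hearts (log2 fold change 3.77, SE 0.553, adjusted p = 0.000113). Rtn4r, the receptor of the axon growth inhibitor Nogo, had 22.3, 12.7 and 14.6 FPKM in T3 hearts and 0.144, 0.939 and 0.385 FPKM in PTU hearts (log2 fold change 3.56, adjusted p = 2.79e-06). Casq1 and Rtn4r likewise showed no overlap. Cxcl14, a chemokine, had 27.1, 22.5 and 20.3 FPKM in T3 hearts, 2.57, 2.63 and 1.06 FPKM in PTU hearts and 22.2 ± 4.13 FPKM on chow, so T3 hearts and chow hearts stood at similar levels. Abhd1, a transcribed pseudogene in RefSeq's annotation, rose by 3.48, Rgs7, a regulator of G protein signalling, by 3.42 and the membrane protein Tmem52 by 3.36 on the log2 scale. Prss55, a serine protease, was listed at the lowest value of the table, 0.01 FPKM, in all 3 PTU hearts and had 2.24, 1.11 and 4.51 FPKM in T3 hearts.

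Large falls were as varied. The long non-coding RNA 9630028I04Rik (chromosome 17, 27235075 to 27248066) had 0.776, 0.653 and 0.733 FPKM in T3 hearts, 33.1, 47.9 and 50.3 FPKM in PTU hearts and 10.4 ± 3.72 FPKM on chow (log2 fold change -4.68, SE 0.208, adjusted p = 4.57e-10). Efnb3, the membrane ligand ephrin B3, had 13.0, 9.23 and 8.68 FPKM in T3 hearts, 96.3, 98.4 and 91.0 FPKM in PTU hearts and 31.7 ± 4.38 FPKM on chow (log2 fold change -3.11, SE 0.198, adjusted p = 1.65e-08). For both genes the chow hearts lay between the T3 and the PTU hearts. Fam134b, a receptor for the autophagy of endoplasmic reticulum, had 32.2, 22.2 and 22.1 FPKM in T3 hearts and 219, 141 and 310.4 FPKM in PTU hearts (log2 fold change -3.03, SE 0.245, adjusted p = 2.44e-07). Bex1, a small protein best known from neurons, had 0.654, 0.404 and 2.10 FPKM in T3 hearts, 13.3, 12.0 and 26.6 FPKM in PTU hearts and 0.982 ± 0.454 FPKM on chow (log2 fold change -3.16, adjusted p = 2.45e-05). Gnmt, glycine methyltransferase, had 1.32, 1.19 and 1.56 FPKM in T3 hearts and 12.8, 15.6 and 16.2 FPKM in PTU hearts (log2 fold change -2.75, adjusted p = 7.39e-06). In none of these did a T3 heart reach the lowest PTU heart. Apod, the lipid carrier apolipoprotein D, fell by 2.68, the leucine-rich repeat gene Lrrc2 by 2.63 and the zinc finger gene Zcchc5 by 2.85 on the log2 scale.

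**Figure D3:**
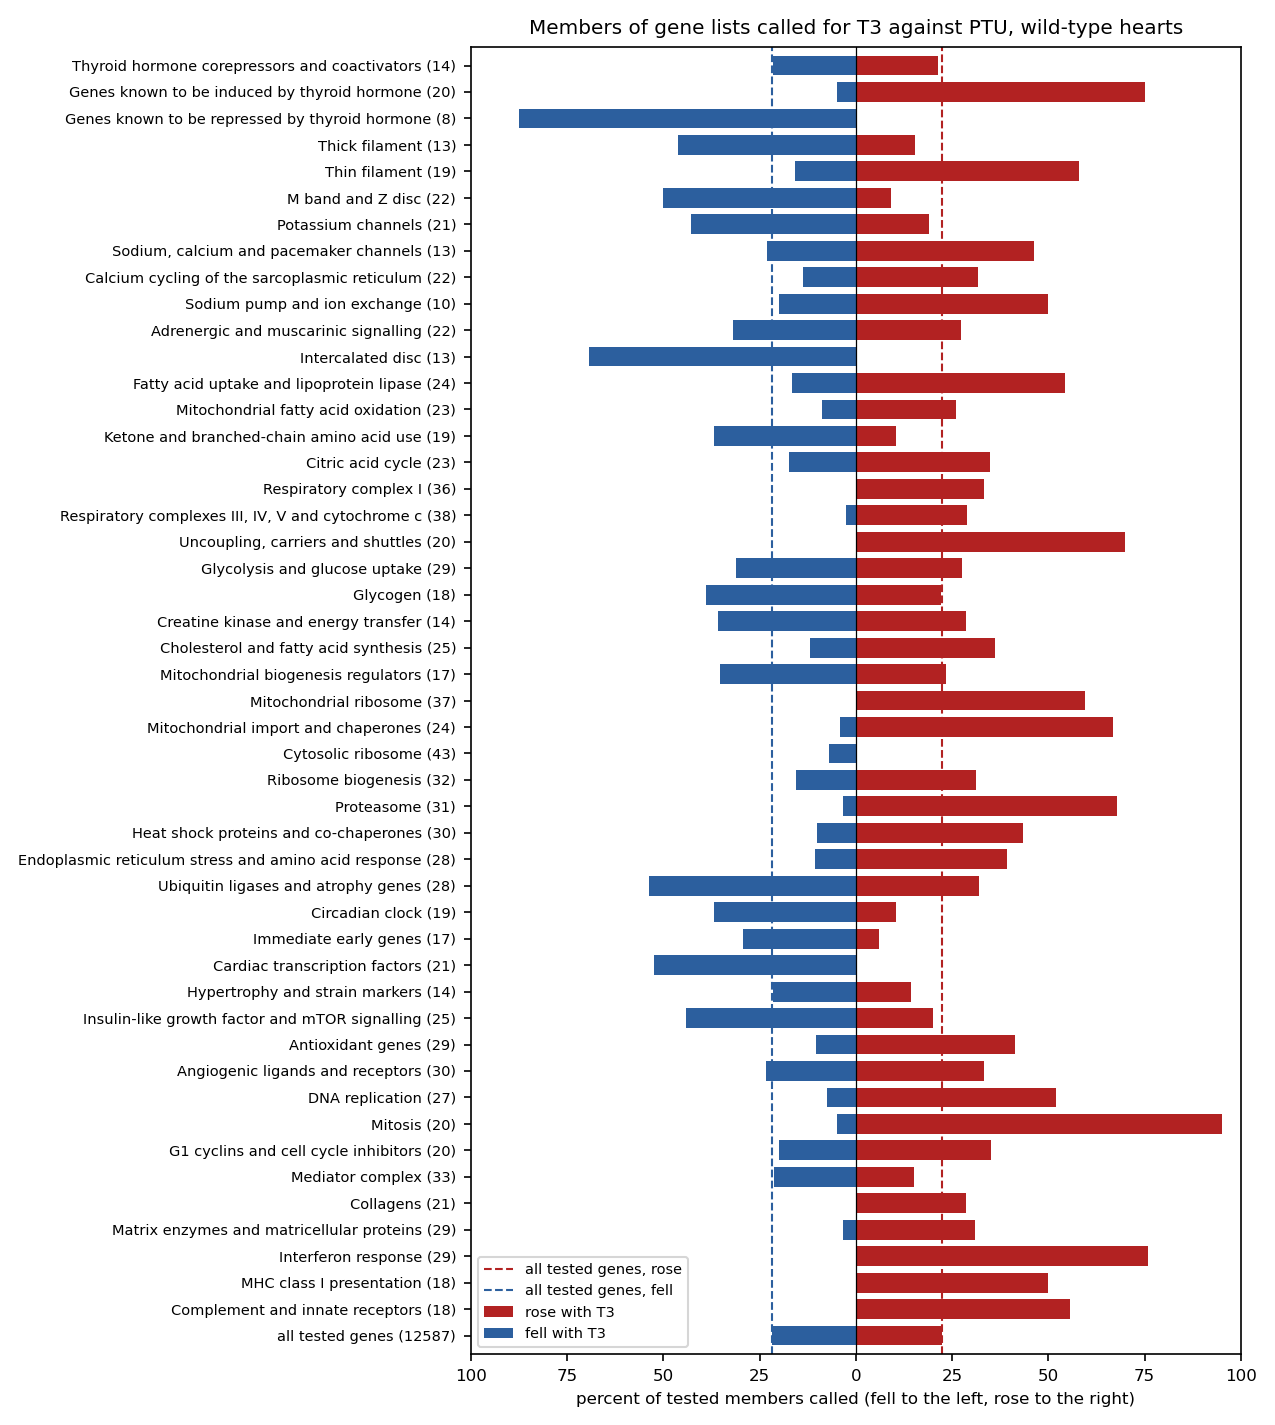
Percent of tested members that rose or fell in T3 against PTU hearts, for each gene list with at least 8 tested members; dashed lines mark the shares among all tested genes, 22.3% for rises and 21.8% for falls. The share that rose reaches 95.0% for mitosis and 75.9% for interferon response, and the share that fell 87.5% for hormone-repressed genes and 69.2% for the intercalated disc. The mitosis share covers the 20 of 27 listed genes that passed the filter, most of them at low levels.

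Among contractile genes, more of the thin filament rose than fell, and more of the thick filament, M band and Z disc fell than rose, in T3 hearts. The myosin heavy chains exchanged places: Myh6, the fast chain, had 3426, 2547 and 3100.0 FPKM in T3 hearts and 404, 208 and 106 FPKM in PTU hearts (log2 fold change 3.85, adjusted p = 1.21e-06). Myh7, the slow chain, had 193, 166 and 224 FPKM in T3 hearts and 3088, 2599 and 3642 FPKM in PTU hearts (log2 fold change -3.99, adjusted p = 1.5e-08). The libraries do not record strand, so Myh7 values may include reads of Mhrt, the non-coding transcript of the opposite strand. Of 19 thin filament genes 11 rose (57.9%) and 3 fell (15.8%); the count that rose dropped to 6 without the library highest in atrial markers of each group (T3 replicate 3 and PTU replicate 1) and to 7 without PTU replicate 2 or in a fit of the 6 WT libraries alone. Actc1, cardiac alpha-actin (chromosome 2, 114047282 to 114052875), had 17106, 15571 and 22777 FPKM in T3 hearts, 4561, 5202 and 5108 FPKM in PTU hearts and 10644 ± 1191 FPKM on chow (log2 fold change 1.88, SE 0.173, adjusted p = 5.98e-07). Acta1, skeletal alpha-actin, had 1267, 612 and 1409 FPKM in T3 hearts and 66.1, 92.0 and 39.8 FPKM in PTU hearts. Acta2, the actin of smooth muscle, had 382, 565 and 363 FPKM in T3 hearts and 45.4, 86.0 and 38.7 FPKM in PTU hearts (log2 fold change 2.98, SE 0.31, adjusted p = 2.91e-06). Each actin lay wholly higher with T3; the actins are near-identical in sequence, and reads shared between them may have been split by the authors' counting. Acta2 was the only 1 of 10 mural cell markers that rose, 2 fell, and Tagln, another smooth muscle gene, was not called (log2 fold change -0.05, adjusted p = 0.905). Tmod1, which caps the thin filament, rose by 1.02 on the log2 scale. Tpm1, the main tropomyosin, had 9605, 7998 and 12056 FPKM in T3 hearts and 5555, 5457 and 7471 FPKM in PTU hearts (log2 fold change 0.68, adjusted p = 0.00784), and its call ended without the libraries highest in atrial markers (adjusted p = 0.121). Tnnt2, cardiac troponin T, was lower, with 5907, 5478 and 8518 FPKM in T3 hearts and 10859, 9241 and 12757 FPKM in PTU hearts (log2 fold change -0.74, adjusted p = 0.00924), whereas the inhibitory subunit Tnni3 was not called (log2 fold change 0.31, adjusted p = 0.281).

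Of 13 thick filament genes 2 rose and 6 fell, with a median log2 fold change of -0.52 that was -0.04 without the libraries highest in atrial markers, -0.17 without PTU replicate 1 and -0.08 without T3 replicate 2, and of 22 genes of the M band and Z disc 2 rose and 11 fell (50%). Mylk3, the kinase of the ventricular myosin light chain, had 208, 207 and 209.9 FPKM in T3 hearts and 361, 309 and 334 FPKM in PTU hearts (log2 fold change -0.68, adjusted p = 0.000127). The light chain itself, Myl2, had 16102, 11801 and 22069.8 FPKM in T3 hearts and 25299, 25279.9 and 31661 FPKM in PTU hearts (log2 fold change -0.76, adjusted p = 0.0171), a call that ended without PTU replicate 3 (adjusted p = 0.0655) or T3 replicate 2 (adjusted p = 0.0935). Mylk4, a related kinase, moved the other way and rose by 2.08 on the log2 scale (SE 0.374). Mybpc3, myosin binding protein C, fell by 0.69 and the non-muscle chain Myh14 by 0.94. Titin, the giant spring encoded by Ttn, was not called (log2 fold change -0.13, adjusted p = 0.641). Myom2, a protein of the M band, had 32.4, 20.9 and 28.9 FPKM in T3 hearts and 713, 637 and 872 FPKM in PTU hearts, so the PTU hearts stood far above (log2 fold change -4.72, adjusted p = 4.57e-10). Among Z disc genes Synpo2l, an actin-associated protein, had 24.1, 24.4 and 24.8 FPKM in T3 hearts and 46.7, 56.2 and 49.2 FPKM in PTU hearts (log2 fold change -1.02, adjusted p = 0.00272), while Nexn, an actin-binding protein, fell by 0.94 and the stretch-sensing protein Csrp3 by 0.77. The 2 members that rose were Tcap, which anchors titin, with 3456, 3353 and 5292 FPKM in T3 hearts and 1565, 811 and 1846 FPKM in PTU hearts (log2 fold change 1.57, adjusted p = 0.000689), and Myoz2, which binds calcineurin at the Z disc (log2 fold change 1.17, SE 0.141). Every T3 heart exceeded every PTU heart in both.

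Ion channel genes shifted in both directions. Of 21 potassium channel genes 4 rose (19.0%) and 9 fell (42.9%). Kcnj5, a subunit of the acetylcholine-gated channel, had 20.1, 16.6 and 17.4 FPKM in T3 hearts and 63.0, 49.2 and 50.5 FPKM in PTU hearts (log2 fold change -1.53, SE 0.118, adjusted p = 1.2e-07). Kcne1, the accessory subunit of the slow delayed rectifier, had 0.325, 0.464 and 0.406 FPKM in T3 hearts and 6.23, 3.71 and 6.49 FPKM in PTU hearts (log2 fold change -2.18, adjusted p = 4.05e-06). Both were lower with T3, without overlap. The pore subunit that Kcne1 accompanies, Kcnq1, fell by 0.79 as well, and 2 subunits of the ATP-sensitive channels, Abcc8 and Kcnj11, had log2 fold changes of -1.01 and -0.81. The silent subunit Kcnv2 rose by 1.47 and the rapid delayed rectifier Kcnh2 by 0.46. Kcnv2 did not reach a minimum of 5 FPKM in 3 libraries, and its log2 fold change lay between 1.33 and 2.75 over the alternatives.

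Of 13 sodium, calcium and pacemaker channel genes 6 rose (46.2%) and 3 fell (23.1%). Scn4b, an auxiliary subunit of sodium channels, had 15.3, 3.08 and 7.47 FPKM in T3 hearts and 0.599, 0.586 and 0.534 FPKM in PTU hearts (log2 fold change 2.39, adjusted p = 3.51e-05). Hcn4, the pacemaker channel of the sinus node, had 8.19, 6.47 and 5.46 FPKM in T3 hearts and 2.72, 2.17 and 1.08 FPKM in PTU hearts (log2 fold change 1.39, adjusted p = 3.81e-05). Each was higher in all T3 hearts than in any PTU heart. Cntn2, an adhesion protein of the conduction system, rose with them, with 7.64, 8.25 and 4.34 FPKM in T3 hearts and 0.824, 0.811 and 0.220 FPKM in PTU hearts (log2 fold change 2.24, adjusted p = 3.87e-06). Of 8 listed conduction system markers 5 were tested. Of these 3 rose (60%) and none fell, against 22.3% and 21.8% of all tested genes. Cntn2 was below 1 FPKM in every PTU heart and passed the filter through other groups, which favours members that rose. With a minimum of 5 FPKM in 3 libraries 3 markers were tested and 2 rose. Without T3 replicate 1, 3 of the 5 rose and 1 fell. Cacna1c, the pore of the L-type calcium channel, had 18, 15.1 and 13.9 FPKM in T3 hearts and 44.0, 38.3 and 47.3 FPKM in PTU hearts (log2 fold change -1.41, SE 0.113, adjusted p = 1.82e-07). Its accessory subunit Cacna2d1 went the opposite way, with 59.7, 59.0 and 60.8 FPKM in T3 hearts and 21.3, 22 and 20.8 FPKM in PTU hearts; its values were marked as failed estimates in other libraries of the table, so the fit used the 6 WT libraries only (log2 fold change 1.44, SE 0.0862, adjusted p = 2.95e-05). Trip10, treated the same way because of failed estimates, had 46.2, 35.8 and 47.4 FPKM in T3 hearts and 71.9, 64.9 and 75.7 FPKM in PTU hearts (log2 fold change -0.71, adjusted p = 0.00388).

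Of 22 genes of calcium cycling in the sarcoplasmic reticulum 7 rose (31.8%) and 3 fell (13.6%). The ryanodine receptor Ryr2, which releases calcium, rose by 0.64, Jph2, which holds the release sites at the surface membrane, by 0.78, and the calcium buffer Casq2 by 0.53 on the log2 scale. Mrln, a micropeptide that inhibits the calcium pump, rose by 1.43 (SE 0.296), while the kinase Camk2a fell by 1.01. Mrln did not reach a minimum of 5 FPKM in 3 libraries, and its log2 fold change lay between 1.18 and 2.17 over the alternatives. Of 10 genes of the sodium pump and ion exchange 5 rose and 2 fell.

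Adrenergic signalling genes were called in both directions, 6 of 22 higher (27.3%) and 7 lower (31.8%). Adrb1, the main beta receptor of the myocyte, had 8.28, 6.70 and 7.27 FPKM in T3 hearts and 4.68, 5.66 and 4.13 FPKM in PTU hearts (log2 fold change 0.54, adjusted p = 0.00308). The alpha receptor Adra1b had 18.6, 15.4 and 20.7 FPKM in T3 hearts and 7.52, 5.92 and 8.03 FPKM in PTU hearts (log2 fold change 1.24, SE 0.153, adjusted p = 1.16e-05). Pde3a, a phosphodiesterase that degrades cyclic AMP, had 6.93, 5.99 and 4.80 FPKM in T3 hearts and 25.7, 18 and 27.7 FPKM in PTU hearts (log2 fold change -1.83, SE 0.173, adjusted p = 7.81e-07). The receptors were higher and Pde3a lower with T3, without overlap. Pde4b, another phosphodiesterase, rose by 0.80, Rgs4, which limits G protein signals, by 1.29, and Prkar1a, a regulatory subunit of protein kinase A, fell by 1.01 with 140.0, 166 and 145 FPKM in T3 hearts and 292, 300.4 and 317 FPKM in PTU hearts.

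Genes of the intercalated disc, the junction that joins cardiomyocytes end to end, moved in 1 direction: 9 of 13 fell (69.2%) and none rose, with a median log2 fold change of -0.77. Without the libraries highest in atrial markers 6 of the 13 fell and none rose. Dsp, desmoplakin, which ties desmosomes to intermediate filaments, had 88.5, 79.3 and 78.5 FPKM in T3 hearts, 226, 214 and 245 FPKM in PTU hearts and 144 ± 25.4 FPKM on chow (log2 fold change -1.46, SE 0.118, adjusted p = 1.83e-07). Cdh2, N-cadherin, had 48.8, 49.6 and 51.1 FPKM in T3 hearts, 124, 103 and 141 FPKM in PTU hearts and 63.9 ± 3.93 FPKM on chow (log2 fold change -1.27, SE 0.106, adjusted p = 2.46e-07). Pkp2, plakophilin, had 49.8, 52.3 and 52.4 FPKM in T3 hearts and 99.5, 79.1 and 111 FPKM in PTU hearts (log2 fold change -0.88, adjusted p = 1.74e-05). In all 3 every T3 heart lay below every PTU heart. The anchoring protein Nrap fell by 0.95 and the desmosomal cadherin Dsg2 by 0.77, while Tjp1 and Vcl, for a tight junction scaffold and vinculin, were not called, with log2 fold changes of -0.03 and 0.04.

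Cardiac transcription factors also moved in 1 direction only, with 11 of 21 lower (52.4%) and none higher, and a median of -0.39. Prox1, a homeobox factor of muscle and lymphatic cells, had 6.15, 3.82 and 4.49 FPKM in T3 hearts and 13.7, 10.6 and 13.6 FPKM in PTU hearts (log2 fold change -1.24, adjusted p = 0.000133). Tbx20, a T-box factor, had 17.2, 17.9 and 12.7 FPKM in T3 hearts and 37.2, 32.4 and 34.2 FPKM in PTU hearts (log2 fold change -1.08, adjusted p = 1.48e-05). Gata6, a zinc finger factor, fell by 1.05, Meis1, which restrains myocyte division, by 0.85, and Mef2a by 0.65 on the log2 scale. The core factor Nkx2-5 was not called (log2 fold change 0.05, adjusted p = 0.696). In a separate list of 17 tested immediate early genes, 1 rose (5.88%), 5 fell (29.4%) and 11 were not called. Among all tested genes 22.3% rose and 21.8% fell. Nr4a1, an orphan nuclear receptor that answers acute stimuli, had 4.22, 3.21 and 1.77 FPKM in T3 hearts and 25.2, 22.6 and 19.7 FPKM in PTU hearts (log2 fold change -2.57, SE 0.29, adjusted p = 6.24e-06). Klf15, a metabolic transcription factor, had 17.9, 13.5 and 21.5 FPKM in T3 hearts and 49.9, 44.5 and 61.6 FPKM in PTU hearts (log2 fold change -1.52, adjusted p = 0.000169). The natriuretic peptides Nppa and Nppb, markers of strain, were not called. Nppa had 2497, 2959.9 and 3034 FPKM in T3 hearts and 4388, 2467 and 1609.7 FPKM in PTU hearts. Nppa is itself a member of the atrial marker list and makes up most of its sum, so their similar spread adds no separate information. Nppb had 283, 556 and 201 FPKM in T3 hearts and 252, 309 and 363 FPKM in PTU hearts.

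Of 24 genes of fatty acid uptake and lipoprotein lipase 13 rose (54.2%) and 4 fell (16.7%), whereas of 23 genes of mitochondrial fatty acid oxidation 6 rose (26.1%) and 2 fell (8.70%). Acsl6, an acyl-CoA synthetase, had 27.2, 21.4 and 33.2 FPKM in T3 hearts and 4.44, 3.24 and 5.14 FPKM in PTU hearts (log2 fold change 2.42, SE 0.266, adjusted p = 4.97e-06). Angptl4, a secreted inhibitor of lipoprotein lipase, had 11.2, 3.96 and 10.5 FPKM in T3 hearts, 0.755, 1.44 and 0.883 FPKM in PTU hearts and 11.1 ± 5.39 FPKM on chow (log2 fold change 2.14, SE 0.372, adjusted p = 0.000324). Both were higher in every T3 heart. Lpl, lipoprotein lipase itself, was lower in every T3 heart, with 787, 544 and 706 FPKM in T3 hearts, 2285, 1894 and 2887 FPKM in PTU hearts and 1208 ± 211 FPKM on chow. Dgat2, which makes triglyceride, rose by 1.31 and the lipid droplet protein Plin5 by 1.12 on the log2 scale. The fatty acid transporter Slc27a1 fell by 1.15, and Cd36 and Fabp3, for an uptake receptor and an abundant carrier of fatty acids, were not called (log2 fold changes -0.10 and 0.07). Among the oxidation genes the acyl-CoA dehydrogenase Acadvl rose by 0.88 and the carnitine carrier Slc25a20 by 1.0. Without the libraries highest in atrial markers 3 oxidation genes rose and 2 uptake genes fell, and without PTU replicate 2 the oxidation genes that fell numbered 4.

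Genes for the use of ketones and branched-chain amino acids were lower in 7 of 19 cases (36.8%) and higher in 2 (10.5%). Ppm1k, the phosphatase that activates the branched-chain ketoacid dehydrogenase, had 15, 11.7 and 9.72 FPKM in T3 hearts and 57.0, 39.8 and 60.5 FPKM in PTU hearts (log2 fold change -2.02, SE 0.238, adjusted p = 9.04e-06). Bckdha, a subunit of that dehydrogenase, fell by 1.11 on the log2 scale, and Bcat2, the transaminase before it, by 0.66. Ivd, the next enzyme of leucine breakdown, fell by 1.02.

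Pyruvate entry and the citric acid cycle showed opposite moves of neighbouring enzymes. Pdhb, a subunit of pyruvate dehydrogenase, had 794, 649 and 1002 FPKM in T3 hearts and 293, 292 and 385 FPKM in PTU hearts (log2 fold change 1.32, SE 0.169, adjusted p = 1.62e-05). Its inhibitory kinase Pdk4 was higher as well, with 383, 107 and 270.2 FPKM in T3 hearts and 45.8, 28.2 and 49.3 FPKM in PTU hearts (log2 fold change 2.45, SE 0.439, adjusted p = 0.000461), while the kinases Pdk1 and Pdk2 were lower (log2 fold changes -1.26 and -0.81). The pyruvate carrier subunit Mpc2 had 737, 617 and 929.7 FPKM in T3 hearts and 354, 286 and 442 FPKM in PTU hearts (log2 fold change 1.08, adjusted p = 0.000119). Of 23 citric acid cycle genes 8 rose (34.8%) and 4 fell (17.4%). Idh2, the NADP-dependent isocitrate dehydrogenase of mitochondria (chromosome 7, 80094845 to 80118608), had 727, 470.2 and 811 FPKM in T3 hearts, 2613, 2374 and 3243 FPKM in PTU hearts and 1176 ± 134 FPKM on chow (log2 fold change -2.06, SE 0.214, adjusted p = 1.97e-06). Idh3a, a subunit of the NAD-dependent enzyme that acts on the same substrate, had 501, 443 and 564 FPKM in T3 hearts and 238, 212 and 280.3 FPKM in PTU hearts (log2 fold change 1.05, adjusted p = 2.09e-05). The groups of both isocitrate dehydrogenases were apart, Idh2 lower and Idh3a higher with T3. The count of cycle genes that rose was 5 without the libraries highest in atrial markers.

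Sugar, glycogen and energy transfer genes split about evenly: 8 of 29 glycolysis genes rose and 9 fell, 4 of 18 glycogen genes rose and 7 fell, and 4 of 14 genes of creatine kinase and energy transfer rose and 5 fell. The glycolytic mutase Pgam1 rose by 1.2, the glucose transporter Slc2a1 fell by 0.75, the glycogen branching enzyme Gbe1 rose by 1.23, and the phosphorylase Pygl fell by 1.04 on the log2 scale. Ckmt2, mitochondrial creatine kinase, rose by 0.90, while the creatine transporter Slc6a8 fell by 1.17 and Prkag2, a subunit of the energy sensor AMPK, by 1.27. Regulators of lipid and sugar genes moved apart: Srebf1 had 7.59, 8.56 and 6.79 FPKM in T3 hearts and 31.8, 23.9 and 19.0 FPKM in PTU hearts (log2 fold change -1.56, SE 0.21, adjusted p = 2.93e-05). Mlxipl, the carbohydrate response factor ChREBP, had 17.9, 11.9 and 18.5 FPKM in T3 hearts and 4.10, 3.51 and 3.53 FPKM in PTU hearts (log2 fold change 1.84, SE 0.159, adjusted p = 3.26e-07). Ppard, a fatty acid receptor that activates lipid genes, had 19.4, 16 and 22 FPKM in T3 hearts and 7.27, 7.79 and 6.61 FPKM in PTU hearts (log2 fold change 1.28, SE 0.12, adjusted p = 6.92e-07). Without overlap, Srebf1 was lower and the other two higher with T3.

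Mitochondrial genes rose in groups. Of 20 genes of uncoupling, carriers and shuttles 14 rose (70.0%), or 10 without the libraries highest in atrial markers, and none fell, with a median log2 fold change of 0.67. Ucp2, the uncoupling protein of many tissues, had 130.3, 135 and 105 FPKM in T3 hearts, 41.2, 31.7 and 20.7 FPKM in PTU hearts and 173 ± 37.2 FPKM on chow (log2 fold change 2.0, SE 0.314, adjusted p = 0.000139). Slc25a33, a carrier of pyrimidine nucleotides, had 25.8, 23.3 and 27.1 FPKM in T3 hearts and 5.37, 6.09 and 8.07 FPKM in PTU hearts (log2 fold change 1.83, adjusted p = 7.71e-06), and Slc25a22, a glutamate carrier, had 33.3, 21.6 and 37.1 FPKM in T3 hearts and 9.31, 9.23 and 9.83 FPKM in PTU hearts (log2 fold change 1.56, adjusted p = 2.37e-06). Of 37 proteins of the mitochondrial ribosome 22 rose (59.5%), or 16 without the libraries highest in atrial markers, and none fell, with a median of 0.42. The largest change among them was that of Mrpl12, with 458, 445 and 569 FPKM in T3 hearts and 216, 191 and 241 FPKM in PTU hearts (log2 fold change 1.18, SE 0.136, adjusted p = 6.03e-06). Of 24 genes of mitochondrial import and chaperones 16 rose (66.7%) and 1 fell (4.17%). Those that rose included Timm8a1 (log2 fold change 1.23) and Timm22 (1.04), which serve the import of inner membrane proteins, and the chaperonin Hspd1 (0.81). Trap1, a mitochondrial chaperone of the Hsp90 family, fell by 0.57. The count that rose was 9 without the libraries highest in atrial markers and 10 without T3 replicate 3.

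Counts for the respiratory chain lay nearer to the background and varied with the libraries used. Over all tested genes 2051 rose without the libraries highest in atrial markers, against 2802 with all libraries. In the other fits with fewer libraries named below between 2336 and 2451 of all genes rose. Of 36 subunits of complex I 12 rose (33.3%) and none fell, and of 38 of complexes III, IV and V with cytochrome c 11 rose (28.9%) and 1 fell (2.63%). For complex I the number that rose was 4 without the libraries highest in atrial markers, 6 without PTU replicate 2, without T3 replicate 3 or in a fit of the 6 WT libraries alone, and 7 without PTU replicate 1. For the other complexes it was 3 without the libraries highest in atrial markers, 6 without T3 replicate 3 and 7 without PTU replicate 2, and the number that fell was 3 without T3 replicate 3 and 8 when libraries were scaled to an equal sum. The 2 isoforms of 1 subunit of cytochrome oxidase exchanged in part: Cox6a1, the common form, had 424, 455 and 518 FPKM in T3 hearts and 175, 207 and 174 FPKM in PTU hearts (log2 fold change 1.32, SE 0.107, adjusted p = 1.9e-07). Cox6a2, the form of heart and skeletal muscle, had 1971, 1565 and 2507 FPKM in T3 hearts and 3376, 3046 and 3846 FPKM in PTU hearts (log2 fold change -0.78, SE 0.198, adjusted p = 0.00457). Neither showed overlap, and Cox6a2 was the more abundant in each of the 6 libraries.

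Of 43 proteins of the cytosolic ribosome none rose and 3 fell (6.98%), well under the background of all genes, though 13 fell with scaling to the 75th percentile and 16 with scaling to an equal sum, 7 fell without T3 replicate 3, and 3 rose and 2 fell without T3 replicate 1. Genes of protein breakdown moved more. Of 31 proteasome subunits 21 rose (67.7%), or 14 without the libraries highest in atrial markers, and 1 fell (3.23%), with a median log2 fold change of 0.36. Psmd14, a deubiquitinase of the lid, had 57.5, 58.7 and 67.8 FPKM in T3 hearts and 33.7, 30.2 and 33.3 FPKM in PTU hearts (log2 fold change 0.90, SE 0.0902, adjusted p = 1.43e-06). Among ubiquitin ligases and atrophy genes 9 of 28 rose (32.1%) and 15 fell (53.6%). Asb11, a substrate receptor of a ligase complex, had 41.3, 27.9 and 28.4 FPKM in T3 hearts and 144, 135 and 162 FPKM in PTU hearts (log2 fold change -2.16, SE 0.168, adjusted p = 1.32e-07). Sqstm1, the autophagy receptor p62, had 176, 163 and 159 FPKM in T3 hearts and 392, 339 and 406 FPKM in PTU hearts (log2 fold change -1.18, SE 0.104, adjusted p = 3.86e-07). Every T3 heart was below every PTU heart in both. Klhl38 and Klhl40, muscle proteins of the kelch family, had log2 fold changes of -1.91 and -1.74, and Bnip3, a mitophagy receptor, and the muscle ligase Trim63 fell too (-1.16 and -0.66). Klhl33, another kelch gene, had 40.3, 32.2 and 46.8 FPKM in T3 hearts and 1.26, 0.622 and 0.459 FPKM in PTU hearts, and the ligase Trim7 had 54.2, 35.4 and 58.0 FPKM in T3 hearts and 2.40, 1.57 and 2.02 FPKM in PTU hearts, both higher in every T3 heart. The ligase Mdm2 and the kelch protein Klhl31 were among those that rose, by 0.89 and by 0.57. Of 30 heat shock proteins and co-chaperones 13 rose (43.3%) and 3 fell (10%); Hspb6, a small heat shock protein of muscle, had 1173, 925 and 1732 FPKM in T3 hearts and 319, 227 and 379 FPKM in PTU hearts (log2 fold change 2.03, SE 0.233, adjusted p = 5.93e-06). Without PTU replicate 3 only 1 of the 30 fell.

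Growth and hormone signalling changed at several points. Of 25 genes of insulin-like growth factor and mTOR signalling 5 rose (20.0%) and 11 fell (44.0%). Igfbp3, a carrier of the growth factor, had 13.4, 12.6 and 14.7 FPKM in T3 hearts, 53.7, 46.1 and 52.9 FPKM in PTU hearts and 14.8 ± 4.80 FPKM on chow (log2 fold change -1.83, SE 0.229, adjusted p = 1.55e-05). Igf2r, which removes insulin-like growth factor 2, had 21.1, 19.8 and 15.1 FPKM in T3 hearts and 50.4, 45.8 and 51.2 FPKM in PTU hearts (log2 fold change -1.36, SE 0.13, adjusted p = 8.77e-07). Ddit4, an inhibitor of mTOR, had 28.1, 29.2 and 36.7 FPKM in T3 hearts and 75, 86.2 and 82.7 FPKM in PTU hearts (log2 fold change -1.36, SE 0.136, adjusted p = 1.38e-06). All 3 were lower with T3 and free of overlap. Eif4ebp1, a repressor of translation, fell by 1.27 and the insulin receptor substrate Irs1 rose by 1.21 on the log2 scale. The peptide apelin and its receptor were both higher: Apln had 8.15, 5.31 and 10.4 FPKM in T3 hearts, 0.383, 0.387 and 0.658 FPKM in PTU hearts and 2.27 ± 0.275 FPKM on chow (log2 fold change 2.56, SE 0.213, adjusted p = 2.44e-07), and Aplnr had 8.84, 9.42 and 9.14 FPKM in T3 hearts and 1.99, 2.19 and 1.47 FPKM in PTU hearts (log2 fold change 1.82, SE 0.183, adjusted p = 1.52e-06). Fgf1, a growth factor of myocytes and vessels, rose by 1.31 (SE 0.155). Of 29 antioxidant genes 12 rose (41.4%) and 3 fell (10.3%); sulfiredoxin, Srxn1, rose by 1.12 and the quinone reductase Nqo1 fell by 1.58.

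Cell division genes were higher in T3 hearts, at low levels. Of 27 listed genes of mitosis 20 passed the filter and were tested. All 20 were called, 19 higher (95.0%) and 1 lower, with a median log2 fold change of 1.05. T3 replicate 2 was the highest T3 heart in 15 of the 20, and 15 rose without it. Of 27 tested DNA replication genes 14 rose (51.9%) and 2 fell (7.41%). With a minimum of 5 FPKM in 3 libraries 9 of them were tested, of which 3 rose and 1 fell. At that minimum 2309 of all 9017 tested genes rose. Mki67, a protein of dividing cells, had 2.77, 3.36 and 2.45 FPKM in T3 hearts and 0.459, 0.125 and 0.175 FPKM in PTU hearts (log2 fold change 1.62, SE 0.221, adjusted p = 2.82e-05). Top2a, a topoisomerase of dividing cells, had 2.88, 4.06 and 2.65 FPKM in T3 hearts and 0.371, 0.193 and 0.280 FPKM in PTU hearts (log2 fold change 1.70, SE 0.238, adjusted p = 3.75e-05). Uhrf1, which copies DNA methylation at replication, had 2.75, 3.44 and 3.53 FPKM in T3 hearts and 0.386, 0.192 and 0.135 FPKM in PTU hearts (log2 fold change 1.78, SE 0.157, adjusted p = 3.91e-07). The T3 hearts were all above the PTU hearts, but at a few FPKM at most, and with a minimum of 5 FPKM in 3 libraries none of the mitosis genes that rose was tested. Mki67, Top2a and Uhrf1 were below 1 FPKM in every PTU heart and passed the filter through other groups. Such a filter favours members that rose, so the shares of 95.0% and 51.9% have to be read with that limit. Cenpf, a centromere protein and the exception of the list, had 0.455, 0.782 and 0.400 FPKM in T3 hearts and 12.3, 12.0 and 9.06 FPKM in PTU hearts (log2 fold change -2.97, SE 0.416, adjusted p = 5.32e-05). The cells that carried these transcripts cannot be told from whole hearts. Macrophage markers were also higher in T3 hearts, by the sums given in the next paragraph, and their part in these rises was not tested.

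Macrophage, complement and interferon response genes rose in larger shares than the 22.3% of all tested genes, as did genes of MHC class I presentation, while no gene of class II presentation was called. Of 16 macrophage markers 11 rose (68.8%), or 8 without T3 replicate 2, and none fell. The markers summed to 609, 871 and 522 FPKM in T3 hearts and 316, 209 and 217 FPKM in PTU hearts, with chow hearts between 364 and 658 FPKM. Cd163, a scavenger receptor of resident macrophages, had 10.2, 6.19 and 8.13 FPKM in T3 hearts and 5.04, 3.15 and 4.43 FPKM in PTU hearts (log2 fold change 0.81, adjusted p = 0.00197). Folr2, another marker of resident macrophages, had 20.7, 17.5 and 19.4 FPKM in T3 hearts and 11.8, 6.49 and 8.35 FPKM in PTU hearts (log2 fold change 1.07, adjusted p = 0.000967). Both were higher in every T3 heart. Mertk, a receptor for the uptake of dead cells, was not called (log2 fold change -0.04, adjusted p = 0.861). Of 18 complement genes and innate receptors 10 rose (55.6%) and none fell. T3 replicate 2 was the highest T3 heart in 16 of the 18, and without it 6 rose. With a minimum of 5 FPKM in 3 libraries 4 of 11 rose, against 2309 of all 9017 genes tested at that minimum. C1qb had 109.9, 135 and 95.1 FPKM in T3 hearts and 48.6, 33.3 and 26.2 FPKM in PTU hearts (log2 fold change 1.66, adjusted p = 0.00105).

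Of 29 interferon response genes 22 rose (75.9%) and none fell, with a median log2 fold change of 0.81. Without T3 replicate 1, which had the highest T3 value in 26 of the 29, 18 rose and 1 fell and the median was 0.62. Isg15, a ubiquitin-like protein, had 7.93, 9.62 and 8.70 FPKM in T3 hearts and 2.27, 4.01 and 2.09 FPKM in PTU hearts (log2 fold change 1.39, SE 0.255, adjusted p = 0.000438). Bst2, which tethers virus particles, had 58.8, 36.9 and 63.2 FPKM in T3 hearts and 21.6, 21.5 and 17.2 FPKM in PTU hearts (log2 fold change 1.32, SE 0.212, adjusted p = 0.000141). Igtp, a GTPase that interferon gamma induces, had 63.2, 9.10 and 12.0 FPKM in T3 hearts and 5.91, 6.42 and 4.30 FPKM in PTU hearts (log2 fold change 1.65, adjusted p = 0.0117), so most of its rise lay in T3 replicate 1, and the call ended in a fit of the 6 WT libraries alone (adjusted p = 0.171). The sum of macrophage markers, given above, was also higher in T3 hearts than in PTU hearts. Among T3 hearts it was highest in replicate 2 (871 FPKM), not in replicate 1 (609 FPKM). The part of macrophages in the rise of interferon response genes was not tested. Of 18 genes of MHC class I presentation 9 rose (50%) and none fell; without T3 replicate 1 it was 7 and 1. B2m, the light chain shared by class I molecules, had 643, 325 and 346 FPKM in T3 hearts, 149, 156 and 149 FPKM in PTU hearts and 233 ± 40.8 FPKM on chow (log2 fold change 1.45, SE 0.199, adjusted p = 3e-05). H2-K1, a class I heavy chain, had 269.7, 112 and 134 FPKM in T3 hearts and 63.8, 57.4 and 49.5 FPKM in PTU hearts (log2 fold change 1.48, SE 0.22, adjusted p = 7.1e-05). T3 replicate 1 was the highest in both genes, and T3 replicates 2 and 3 were still above every PTU heart; reads of class I heavy chain genes may be shared among paralogs. None of 6 genes of MHC class II presentation was called; Cd74 had 125, 76.0 and 17.8 FPKM in T3 hearts and 60.7, 117 and 43.8 FPKM in PTU hearts. Lymphocyte markers summed to 17.5 FPKM in T3 replicate 2 and to at most 4.79 FPKM in the other 5 hearts.

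**Figure D4:**
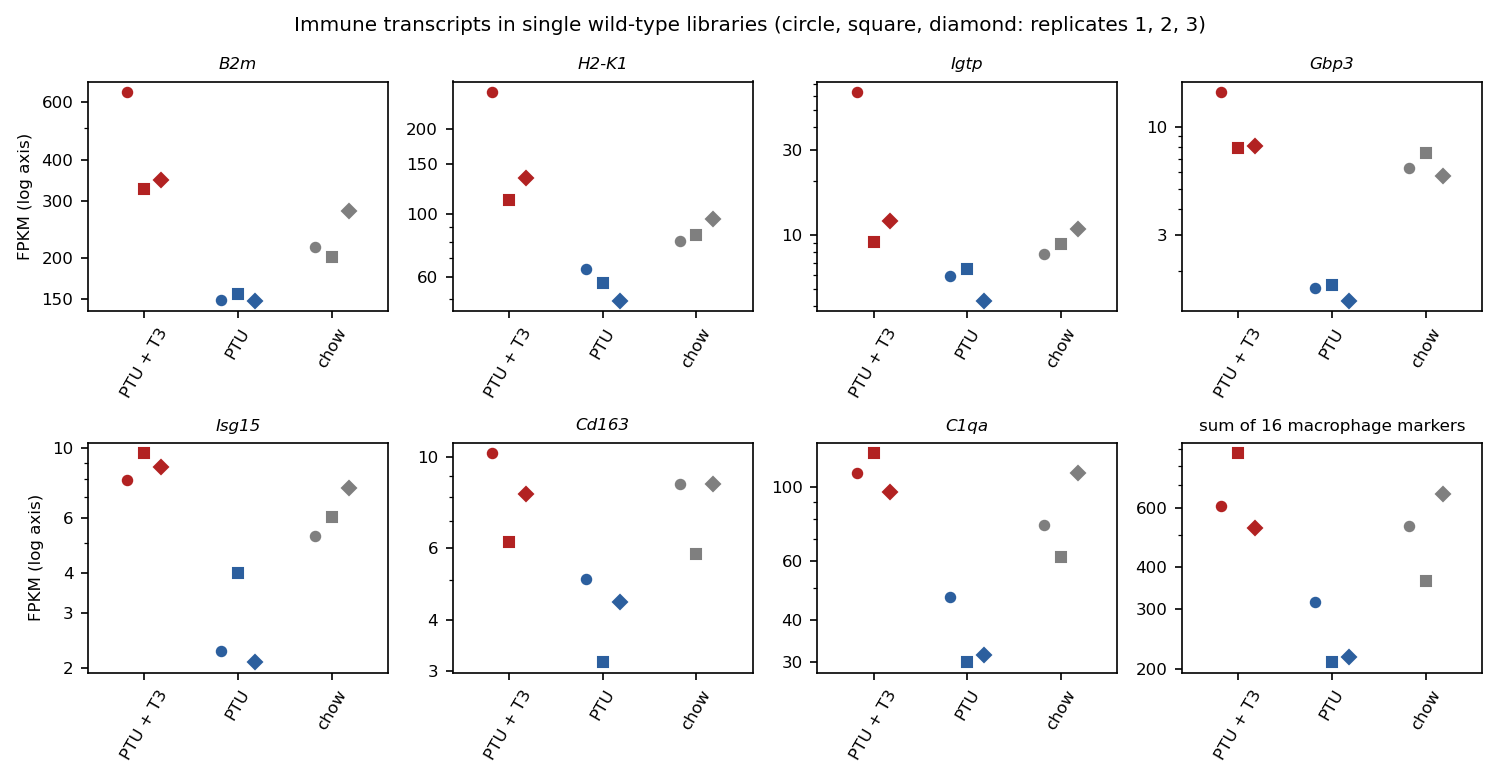
Levels in single WT libraries, in FPKM on a log axis, of B2m, H2-K1, Igtp, Gbp3, Isg15, Cd163 and C1qa and of the sum of 16 macrophage markers, in T3, PTU and chow hearts; circles, squares and diamonds are replicates 1, 2 and 3. T3 replicate 1 lies highest for B2m, H2-K1 and Igtp, and T3 replicate 2 for the macrophage sum (871 FPKM).

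The median change of collagens moved with T3 replicate 2. Of 21 collagens 6 rose (28.6%) and none fell, and the median log2 fold change of 1.01 was 0.39 without T3 replicate 2 and 1.38 without T3 replicate 1. Among the basement membrane collagens, Col4a1 had 73.9, 116 and 88.6 FPKM in T3 hearts and 36.2, 52.4 and 34.0 FPKM in PTU hearts (log2 fold change 1.16, SE 0.239, adjusted p = 0.00111), and Col4a3 and Col4a4 rose by 1.34 and by 1.26 on the log2 scale. Neither Col4a3 nor Col4a4 reached a minimum of 5 FPKM in 3 libraries. Over the alternatives their log2 fold changes lay between 1.15 and 2.36 and between 1.19 and 1.85. Col15a1, a collagen next to the basement membrane, had 20.8, 58.5 and 28.6 FPKM in T3 hearts and 7.60, 10.2 and 4.45 FPKM in PTU hearts (log2 fold change 2.06, SE 0.441, adjusted p = 0.00184). Col1a1, the main collagen of scar tissue, and Postn, a matrix protein of activated fibroblasts, were not called, and T3 replicate 2 exceeded the other 5 libraries in both. Col1a1 had 21.9, 156 and 34.6 FPKM in T3 hearts and 15.9, 60.4 and 7.73 FPKM in PTU hearts (adjusted p = 0.286), and Postn had 13.9, 336 and 24.0 FPKM in T3 hearts and 29.6, 138 and 8.71 FPKM in PTU hearts (adjusted p = 0.768). Fibroblast markers summed to 1497, 2187 and 1525 FPKM in T3 hearts and 1910, 2168 and 1284 FPKM in PTU hearts.

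The same treatment was given to the hearts labelled cKO, in libraries that share none with the comparison above. The level of Med13 did not set these libraries apart, and the cKO label is the submitters': Med13 had 6.82, 6.50 and 5.44 FPKM in libraries labelled cKO on T3 and 6.05, 4.93 and 5.04 FPKM in libraries labelled cKO on PTU, against 5.24 to 6.96 FPKM in WT libraries. There 5877 genes were called (46.7%), 3137 higher (24.9%) and 2740 lower (21.8%) with T3, so that 53.4% of the calls were rises. This split moved with scaling, to 2426 higher and 3722 lower (39.5% rises) at the 75th percentile and to 1634 and 4637 (26.1%) at an equal sum, where the median log2 fold change of all genes was -0.10 and -0.23; in WT hearts it was 2489 and 3173 (44.0%) and 2091 and 2861 (42.2%), against 50.5% without rescaling. Of the 2802 genes that rose in WT hearts 2223 also rose in cKO hearts, which is 79.3% of the WT list and 70.9% of the cKO list. Of the 2743 that fell 2036 also fell, 74.2% of the WT list and 74.3% of the cKO list, and 2 genes were called in opposite directions. Across the 12587 genes the log2 fold changes correlated at a Pearson r of 0.866 and a Spearman rho of 0.834, a description over genes that are not independent. The test of the difference between the WT and cKO effects called 0 genes in limma, with 821 at an unadjusted p under 0.05.

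Single genes with the smallest p for that difference included 3 of antigen presentation. B2m changed by 1.45 in WT hearts and 0.15 in cKO hearts on the log2 scale, with 231 ± 29.9 FPKM in cKO hearts on T3 and 207 ± 26.8 FPKM in cKO hearts on PTU (SD, n = 3 each), and the difference of 1.30 had an adjusted p of 0.696. H2-K1 changed by 1.48 and 0.07, and Tap1, a subunit of the peptide transporter, by 0.64 in WT hearts (not called without T3 replicate 1, adjusted p = 0.0699) and -0.59 in cKO hearts, with differences of 1.41 and 1.23 and the same adjusted p. The gene with the smallest p, E130218I03Rik, changed by 0.49 in WT and -0.51 in cKO hearts (difference 1.0, adjusted p = 0.590). Its levels were near the filter of 1 FPKM. It had 1.36, 1.35 and 1.35 FPKM in WT hearts on T3 and 0.595, 0.754 and 0.670 FPKM in WT hearts on PTU. In cKO hearts it had 0.647, 0.578 and 0.657 FPKM on T3 and 0.876, 1.59 and 1.57 FPKM on PTU. None of these differences passed the correction over all genes. Side by side, interferon genes were higher in 22 of 29 cases in WT and 6 of 29 in cKO hearts, complex I in 12 and 25 of 36, and the mitochondrial ribosome in 22 and 32 of 37. Genes of the intercalated disc fell in 9 and 8 of 13 cases. The WT log2 fold change exceeded the cKO one in 29 of 29 interferon genes, 21 of 21 collagens and 0 of 36 complex I genes, against 5685 of all 12587 tested genes (45.2%). At an equal sum these counts were 29 of 29, 21 of 21 and 4 of 36, against 9486 of 12587. Among WT T3 hearts, replicate 1 was highest in 26 of the 29 interferon genes, against 3964 of all 12587. Replicate 2 was highest in 18 of the 21 collagens, against 3940 of all 12587. Without T3 replicate 1, 18 of the 29 interferon genes rose in WT hearts, against 2583 of all 12587 genes. Without T3 replicate 2, 5 of the 21 collagens rose, against 2526 of all 12587. How far the counts of WT changes above cKO changes rest on these single libraries was not tested. The counts are values side by side, and whether they differ between the labelled genotypes was not tested. Among the largest changes, Metrn changed by 3.63 in WT and 3.68 in cKO hearts, Efnb3 by -3.11 and -2.86, and 9630028I04Rik by -4.68 and -4.47.

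**Figure D5:**
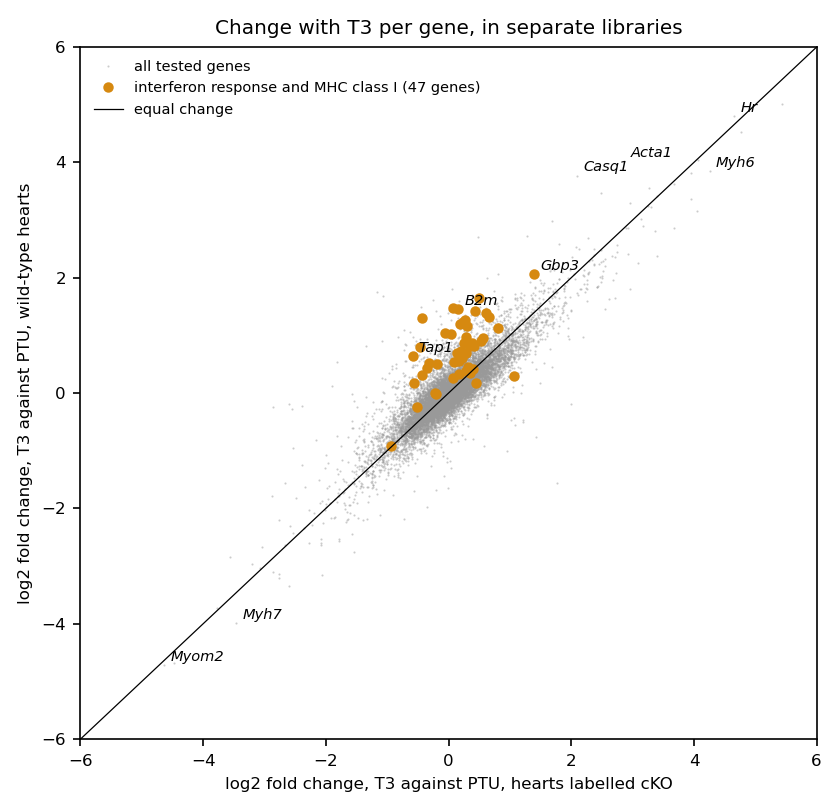
Each point is a tested gene, with the log2 fold change of T3 over PTU in cKO hearts on the horizontal axis and in WT hearts on the vertical axis; the line marks equal changes and orange points are the 47 tested interferon response and MHC class I genes. Points follow the line (Pearson r 0.866 over 12587 genes), and all 29 interferon response genes lie above it, though no gene passed the test of the difference. T3 replicate 1 was the highest WT T3 heart in 26 of the 29.

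The authors' deposited table of the same comparison gives 1 value for each group with a q-value. Over 12397 genes tested in both, the authors' deposited table had 4398 genes with a q-value under 0.05, of which 2354 were higher and 2044 lower with T3, and limma called 5533. Both called 4005 genes, all in the same direction, which is 91.1% of the calls in the authors' deposited table and 72.4% of limma's. Hcn2, Tpm1 and Myl2 were among the genes that only limma called; the authors' deposited table gives them q-values of 0.11, 0.0986 and 0.0991.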

How the data were processed

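Per the labels' protocols, hearts were frozen, RNA was extracted with Trizol, and TruSeq version 2 polyA libraries, a kit that does not mark strand, were made; a gene and one overlapping it on the other strand (Myh7 and Mhrt, Thra and Nr1d1, Pln and Cep85l) cannot be told apart. The authors deposited FPKM values for 24341 genes in 18 libraries, 1 column a library; Bowtie2, Cufflinks and build mm10 are named per the submitters' processing notes, and their versions and the gene annotation are not given in the sources used here. For this comparison the authors deposited 1 FPKM value a group, p-values and q-values too. FPKM hold no read totals and the depth itself is unknown; the steps between low values put the deepest of the 6 libraries at about 1.52 times the shallowest, from only 20.3% to 21.1% of the ratios. A total of 5532 genes stood at the lowest value, 0.01, in all 18 libraries, 5 cells of 2 genes were failed estimates, and 27 date-like symbols were not named. Groups were taken from the genotype and treatment labels.

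The 12587 genes that reached 1 FPKM in 3 or more libraries were analysed as log2(FPKM + 1) with 6 group means over all 18 libraries in limma 3.58.1 (R 4.3.3; trended prior, robust, 12 residual degrees of freedom). A gene was called at a Benjamini-Hochberg adjusted p under 0.05 over all tested genes. The model was tested on simulated data. Gene positions and promoters are those of RefSeq for GRCm38.p6, which has the coordinates of mm10. The comparison, the gene lists and the tests were chosen with earlier results of these data known. Named genes were a hormone panel, the 15 largest rises and falls without overlap, the 8 largest changes of mean FPKM in each direction, genes at the lowest value in a whole group, up to 5 called members a list in each direction with uncalled members needed beside them, marker genes, and the 5 smallest p for the difference between WT and cKO. Chosen after their values were seen were Bnip3, Casq2, Csrp3, Cxcl14, Dsg2, Hspd1, Kcnj11, Kcnq1, Klf15, Mef2a, Mpc2, Mylk3, Pkp2, Plin5, Ryr2, Tmod1, Trim63, Cacna2d1 and Trip10. Alternatives changed the pseudocount, the filter on low values, the scaling, the prior, sample weights and the libraries used; counts of list members without single libraries, and in both genotypes under other scalings, were added after seeing the data. Some genes are not reported here.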

Additional observations from a re-analysis of the deposited data

How the results depend on the processing

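The count of 5545 genes called for T3 against PTU in WT hearts lay between 4081 and 5722 over 16 alternatives and between 4732 and 5063 when 1 replicate was left out; it was 5707 of 18807 genes without a filter on low values, 4455 of 9017 with a minimum of 5 FPKM, 4494 in a fit of the 6 WT libraries alone and 4081 without the library highest in atrial markers of each group. In cKO hearts 5877 genes were called, between 4813 and 6292 over the alternatives and between 4957 and 5440 with 1 replicate left out. The difference between the WT and cKO effects had 0 called genes, 1 without a filter on low values, and 0 to 1 when a replicate was left out; the cause was not tested. No paired analysis was possible because the labels give no replicate numbers shared between groups. In WT hearts scaling put the median log2 fold change of all genes at -0.04 (75th percentile) and -0.06 (equal sum), and in cKO hearts at -0.10 and -0.23, against 0.000789 without rescaling. No log2 fold change of a gene named in the text reversed its sign and kept a call. FPKM values carry no read counts, so differences of genes with low values cannot be given a counting interval.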
